A study of Mus musculus with 24 samples.

Results

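Liver gene expression was compared between mice of 2 lineages that had received the same obesogenic diet. The question was whether livers of a lineage supplemented with eicosapentaenoic acid (EPA) differed from those of a control lineage on that diet. The animals were males of the strain C57Bl6J from the third generation of each lineage and were killed in the fasted state, and total RNA of each liver was hybridised to an Agilent mouse expression array in 1 colour (Cy3). The comparison covered 15 of the 24 arrays of the series, chosen by their labels: 7 arrays of the omega-3 lineage, which was given fish oil rich in EPA, on the high-fat diet (HFepa), and 8 arrays of the control lineage, which was given high-oleic sunflower oil, on the same diet (HFoleic). The other 9 arrays were of the control lineage on a low-fat diet (reference), and no low-fat group of the omega-3 lineage was measured. A lineage difference present on any diet therefore cannot be told apart from an altered response to the high-fat diet. The diet of the HFepa and HFoleic mice was high in fat and sucrose, and both groups had been matched for body weight before it. After the diet, the study reports a lower fat share, glucose and insulin and a higher lean share in HFepa than in HFoleic. The part of these differences in the results below was not tested. The numbers of founding animals and litters behind each lineage are not given in the sources used here, and any other difference between the lineages cannot be told apart from the oil.

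Several of the gene groups described below belong to the endoplasmic reticulum (ER), the compartment in which a hepatocyte folds the plasma proteins, clotting factors and lipoproteins that it secretes. When unfolded proteins accumulate there, the sensors Ern1, Atf6 and Eif2ak3 start the unfolded protein response, in which spliced Xbp1 and cleaved Atf6 activate the genes of chaperones, disulfide isomerases and the machinery that returns misfolded proteins to the proteasome. The fasting liver oxidises fatty acids, largely under the nuclear receptor PPARα, and makes glucose. Its synthesis of sterols and fatty acids, driven by SREBP factors, is low in that state.

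No probe passed an adjusted p under 0.05 in the limma fit of HFepa against HFoleic (0 of 32176, 0%), and the smallest adjusted p was 0.0558. At an unadjusted p under 0.05 there were 2969 probes (9.23% of all tested), 1301 higher (4.04%) and 1668 lower (5.18%) in HFepa. These shares are the background against which the counts of unadjusted p given below should be read, and the word "lower" or "higher" describes a measured difference and not a called change. All levels are log2 signals normalised between arrays by the authors, so a difference of 1 is a factor of 2, and differences are HFepa minus HFoleic. The 95% interval of a probe's difference extended a median of 0.20 to either side, and for 86.4% of the probes the whole interval lay within 0.5 of 0. The difference exceeded 0.5 in either direction for 345 probes (1.07%) and exceeded 1 for 19 probes, 11 higher and 8 lower. Over the 30724 probes with a value on all 15 arrays, 45 (0.146%) separated the groups completely, with every HFepa array above every HFoleic array for 19 and below for 26.

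Over the whole profile, the mean distance between an HFepa and an HFoleic array (root mean square difference of log2 signals) was 0.337, and that between arrays of the same group was 0.324. The difference of 0.013 had a one-sided p of 0.021 in an exact permutation test over all 6435 assignments of the labels, and a p of 0.021 when labels were exchanged only within slides (1000 assignments, chosen after seeing the data). Within the 3 slides the difference was 0.0079, -0.0108 and 0.0139. HFepa replicates 4 and 5 and HFoleic replicate 5 lay nearer, on average, to the arrays of the other group than to those of their own. When single arrays were left out, the p was above 0.05 without HFepa replicate 2 (0.054) and without HFoleic replicates 1 (0.0559), 4 (0.053) and 8 (0.0501), again by exact permutation tests.

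The arrays lay on 3 slides, each with 2 or 3 arrays of each high-fat group, and were scanned on 1 day. Between 28804 and 34432 of 56605 probes per array were well above background, and no spot was saturated. The 12 hepatocyte markers had differences from -0.04 to 0.42 with a median of 0.02, with Alb at a mean of 18.26 in both groups, and 1 of them, the urea cycle enzyme Cps1 (0.42), had an unadjusted p under 0.05. Of the lists for other cell types, blood, bile duct, muscle and endothelium had no member at an unadjusted p under 0.05. The adipocyte list had 1 that was lower, Car3, which hepatocytes also express, and the exocrine pancreas list had 1 that was higher, Cela2a. Differences ran from -0.94 to 0.20 in the adipocyte list and from -0.43 to 0.75 in the pancreas list. The mean over the pancreas list reached 0.65 on 1 HFepa array, with an HFepa median of 0.00. A positive difference was found for 11 of the 12 endothelial genes, with a median of 0.10, and the part of endothelial cells in any result below was not tested. In these bulk samples, fewer cells of a type and less RNA per cell cannot be told apart.

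The genes of protein folding in the ER had the largest share of low p-values among the lists examined. These lists were chosen with earlier results of these data known, so their shares are a description and not a test. Each list is read from the brightest probe of each gene, whereas the share of all probes includes dim ones. Of 27 measured ER chaperones and disulfide isomerases, 26 were lower in HFepa, and 17 (63.0%) were lower at an unadjusted p under 0.05, beside 5.18% of all probes. No member passed the adjusted threshold. The median difference over the 27 genes was -0.26, and the median over all probes was 0.004. The count of 17 stayed between 16 and 18 under every other setting and with each of the 24 arrays left out in turn.

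**Figure D1:**
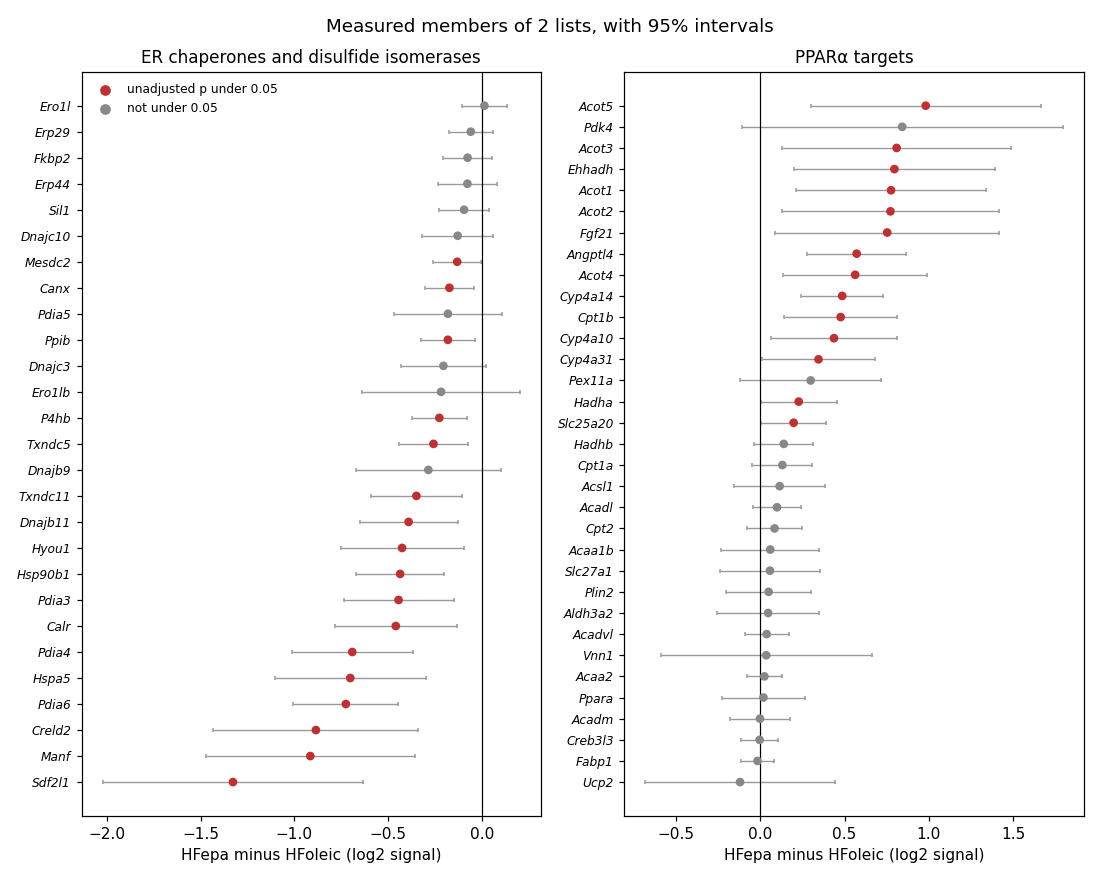
Difference between HFepa and HFoleic (log2 signal, x axis) of every measured ER chaperone or disulfide isomerase (left, 27 genes) and of 33 of the 35 measured PPARα targets (right), with 95% intervals of the limma fit and red points for an unadjusted p under 0.05. In the left panel 26 genes lie below 0, and in the right panel 29 of the genes shown lie above 0.

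Pdia6, a protein disulfide isomerase that reduces and rearranges disulfide bonds, had the smallest p of all named genes lower in HFepa. Its level was 14.4 to 15.18 in HFoleic (median 14.84), 13.7 to 14.56 in HFepa (median 14.12) and 13.43 to 14.19 in the reference (median 13.87). All 7 HFepa arrays lay below the HFoleic mean, and only the highest of them reached the HFoleic range. The difference was -0.73 (95% interval -1.01 to -0.45, limma adjusted p = 0.116), that is 0.605 times the HFoleic signal, and it was -0.84, -0.35 and -1.04 within the 3 slides. Pdia4, a further isomerase of the ER lumen, had levels of 9.46 to 10.23 in HFepa and 10.18 to 11.04 in HFoleic. Those ranges met only at their ends, and the difference was -0.69 (-1.01 to -0.37, limma adjusted p = 0.13).

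Sdf2l1, a component of an ER chaperone complex with Hspa5, had the largest difference of the list. It ranged from 7.97 to 9.77 in HFepa (median 8.98) and from 9.17 to 11.54 in HFoleic (median 10.34), with 7.42 to 9.50 in the reference. The difference was -1.33 (-2.02 to -0.63, limma adjusted p = 0.196), or 0.399 times the HFoleic signal. On the single slides it was -1.49, -0.53 and -1.99. Manf, a secreted ER stress protein, was 10.48 to 12.03 in HFepa (median 11.1) and 11.46 to 12.91 in HFoleic (median 12.21), a difference of -0.93 (95% interval up to -0.35, limma adjusted p = 0.271). A further probe of Manf gave -0.92. Creld2, an ER resident protein of the same response, differed by -0.89 (limma adjusted p = 0.266).

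Hspa5 (BiP), the main Hsp70 of the ER, had 14.41 to 15.66 in HFepa (median 14.84), 15.05 to 16.15 in HFoleic (median 15.7) and 13.86 to 15.1 in the reference, and the difference was -0.70 (-1.10 to -0.30, limma adjusted p = 0.229), with 6 of 7 HFepa arrays below the HFoleic mean. Hsp90b1 (Grp94), the Hsp90 of the ER, differed by -0.44, and the lectin chaperones Calr and Canx by -0.46 and -0.17. The co-chaperone Dnajb11 differed by -0.39, the isomerases Pdia3 and P4hb by -0.44 and -0.23, and Hyou1 by -0.43. All of these had an unadjusted p under 0.05 and lay lower in HFepa on each of the 3 slides. The members with the smallest differences were Erp29 (-0.06) and the oxidase Ero1l (0.01), which recharges disulfide isomerases.

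Derl3, a derlin of the channel that returns misfolded proteins from the ER to the cytosol, had the largest difference of any gene described here. Its level was 8.01 to 11.56 in HFoleic (median 10.48), 6.37 to 8.5 on the 5 HFepa arrays with a value (median 7.02) and 6.05 to 8.31 in the reference (median 7.04). HFepa replicates 2 and 5 had empty cells for this probe, and the fit dropped them. Both lay on slide 2, so the value for that slide rests on HFepa replicate 1 alone. HFoleic replicates 1, 2, 4, 5 and 7 lay between 10.46 and 11.56, and no HFepa or reference array was above 8.5. The difference was -2.64 (-3.71 to -1.58, limma adjusted p = 0.116), or 0.160 times the HFoleic signal, with -2.58, -1.63 and -3.31 on the single slides. Under normexp background correction it was -1.74 (limma adjusted p = 0.278), over 1.5 times smaller.

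Of the 18 genes of ER-associated degradation, 12 were lower and 6 higher, with 6 lower and 1 higher at an unadjusted p under 0.05. Besides Derl3 these were the ubiquitin ligase Syvn1 (Hrd1, -0.56, limma adjusted p = 0.223), its partner Sel1l (-0.46, limma adjusted p = 0.197), Derl2 (-0.20), Ubxn4 (-0.13) and Vimp (-0.19). Syvn1 had 13.58 to 14.18 in HFepa (median 13.83) and 13.85 to 15 in HFoleic (median 14.47), so the ranges overlapped. Other probes of Sel1l gave 0.34 and -0.16, so its direction depended on the probe. As single arrays were left out, the number lower at an unadjusted p under 0.05 ran from 4 to 8. Nploc4, a cofactor of the extraction ATPase Vcp, was the member that was higher (0.19), and Vcp differed by 0.00.

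The sequences that precede these genes are shown because the ER stress element, the binding site of cleaved Atf6 with NF-Y and a known promoter feature of ER chaperones, can be read in them. The element was searched on both strands as CCAAT and CCACG separated by 9 bases, in the 250 bases before the annotated start (RefSeq, GRCm38.p6, first listed start of each gene). It was present before 33 of 27025 genes (0.122%). Of the ER chaperone list, 23 of 27 genes matched the promoter table by symbol and 8 of those (34.8%) held it. In the degradation list it was held by 2 of 14 matched genes, and in the ER translocation list by 0 of 22. The median difference was -0.45 for the 8 chaperone genes with the element and -0.23 for the 15 without, given as a description. The ranges overlapped, from -0.89 to -0.17 with the element and from -1.33 to 0.01 without it. The promoters of Pdia6, Derl3, Hsp90b1, Syvn1 and Hspa5 follow, 5′ to 3′ on the strand of the gene, with the element in capitals.
Pdia6 (chr12:17266339-17266588, plus strand): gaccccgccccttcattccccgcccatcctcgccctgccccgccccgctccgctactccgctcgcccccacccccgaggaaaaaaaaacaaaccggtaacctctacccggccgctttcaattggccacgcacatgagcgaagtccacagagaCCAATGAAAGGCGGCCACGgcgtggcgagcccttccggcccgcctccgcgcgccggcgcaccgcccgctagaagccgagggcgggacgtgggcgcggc
Derl3 (chr10:75893148-75893397, plus strand): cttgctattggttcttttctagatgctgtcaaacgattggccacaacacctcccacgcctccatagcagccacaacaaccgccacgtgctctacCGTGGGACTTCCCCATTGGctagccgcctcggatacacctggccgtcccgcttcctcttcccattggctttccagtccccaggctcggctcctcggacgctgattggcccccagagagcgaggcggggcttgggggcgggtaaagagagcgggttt
Hsp90b1 (chr10:86705445-86705694, minus strand): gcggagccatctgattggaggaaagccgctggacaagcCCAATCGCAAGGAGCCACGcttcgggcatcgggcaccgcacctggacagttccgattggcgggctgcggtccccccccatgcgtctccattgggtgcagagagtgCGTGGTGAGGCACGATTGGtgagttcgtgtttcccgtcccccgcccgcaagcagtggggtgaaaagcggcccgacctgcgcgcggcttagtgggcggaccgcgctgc
Syvn1 (chr19:6046326-6046575, plus strand): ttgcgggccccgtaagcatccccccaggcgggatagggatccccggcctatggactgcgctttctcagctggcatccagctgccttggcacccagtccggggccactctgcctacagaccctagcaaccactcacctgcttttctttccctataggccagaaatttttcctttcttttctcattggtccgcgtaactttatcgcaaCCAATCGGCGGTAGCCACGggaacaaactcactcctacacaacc
Hspa5 (chr2:34771840-34772089, plus strand): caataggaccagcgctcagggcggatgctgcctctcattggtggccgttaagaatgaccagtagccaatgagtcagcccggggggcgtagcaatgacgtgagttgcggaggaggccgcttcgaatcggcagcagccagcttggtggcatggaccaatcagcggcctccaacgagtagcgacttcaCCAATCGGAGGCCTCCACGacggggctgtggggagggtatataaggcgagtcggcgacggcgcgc
The first base of the element lay 98 bases before the start of Pdia6, 156 before Derl3, 212 and 107 before Hsp90b1, 44 before Syvn1 and 65 before Hspa5, with the element of Derl3 and the nearer element of Hsp90b1 on the opposite strand. A match of letters is not shown to be a bound site, and Sdf2l1, with the largest difference of the chaperone list, held no exact match in this window.

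Proteins enter the ER through the Sec61 channel and receive sugars from the oligosaccharyltransferase as they enter. Of 30 measured genes of translocation and glycosylation, 28 were lower in HFepa and 16 (53.3%) were lower at an unadjusted p under 0.05, with none higher. The differences were small, with a median of -0.17 and the largest at -0.40. They covered each step. The signal peptidase subunit Spcs3 differed by -0.37 (9.70 to 10.07 in HFepa, 9.95 to 10.67 in HFoleic, limma adjusted p = 0.196), the oligosaccharyltransferase subunit Ostc by -0.40 (limma adjusted p = 0.223) and the channel subunit Sec61b by -0.29 (limma adjusted p = 0.24). Ssr3, Stt3a, Sec63, Sec61a1, Ddost and Rpn1 differed by -0.19 to -0.30. Dad1 and Sec62 were at 0.02 and 0.01. The number lower at an unadjusted p under 0.05 ran from 12 to 18 as single arrays were left out.

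Of 23 genes of COPII transport, which carries folded cargo to the Golgi, 18 were lower and 7 (30.4%) were lower at an unadjusted p under 0.05. The cargo lectins Lman2 and Lman1 differed by -0.26 and -0.19 (limma adjusted p = 0.194 and 0.272), with 0.15 at a further probe of Lman2, and the coat subunit Sec23b by -0.36, although a further probe of Sec23b gave 0.12. Among 17 regulators of the unfolded protein response, 5 were lower and 1 higher at an unadjusted p under 0.05. Without HFepa replicate 7 the number lower was 3, and with single arrays left out the number higher ran from 0 to 2. Xbp1, the transcription factor spliced by Ern1, had 13.99 to 14.47 in HFepa (median 14.04), 14.27 to 15.07 in HFoleic (median 14.68) and 13.65 to 14.35 in the reference (median 14.01). All 7 HFepa arrays lay below the HFoleic mean, the difference was -0.52 (-0.76 to -0.29, limma adjusted p = 0.124), and the other probes gave -0.51 and -0.47. These probes do not tell spliced from unspliced Xbp1. The sensor Eif2ak3 (Perk) differed by -0.39, but by 0.12 at a further probe, and Atf6 and Ern1 were at 0.00 and 0.09.

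Of 22 measured targets of Atf4, the factor downstream of Eif2ak3, 11 were higher and 11 lower, with 1 each at an unadjusted p under 0.05 (0 to 3 higher and 0 to 2 lower with single arrays left out). Chac1, which degrades glutathione, differed by -0.73 (limma adjusted p = 0.411), and Fgf21, a fasting and stress hormone of the liver, by 0.75 (limma adjusted p = 0.467). Of the regulators, Ppp1r15a, which restores translation, had a difference of 0.27 with an unadjusted p under 0.05, and Ddit3 (Chop) a difference of 0.26 (-0.04 to 0.56) without one.

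**Figure D2:**
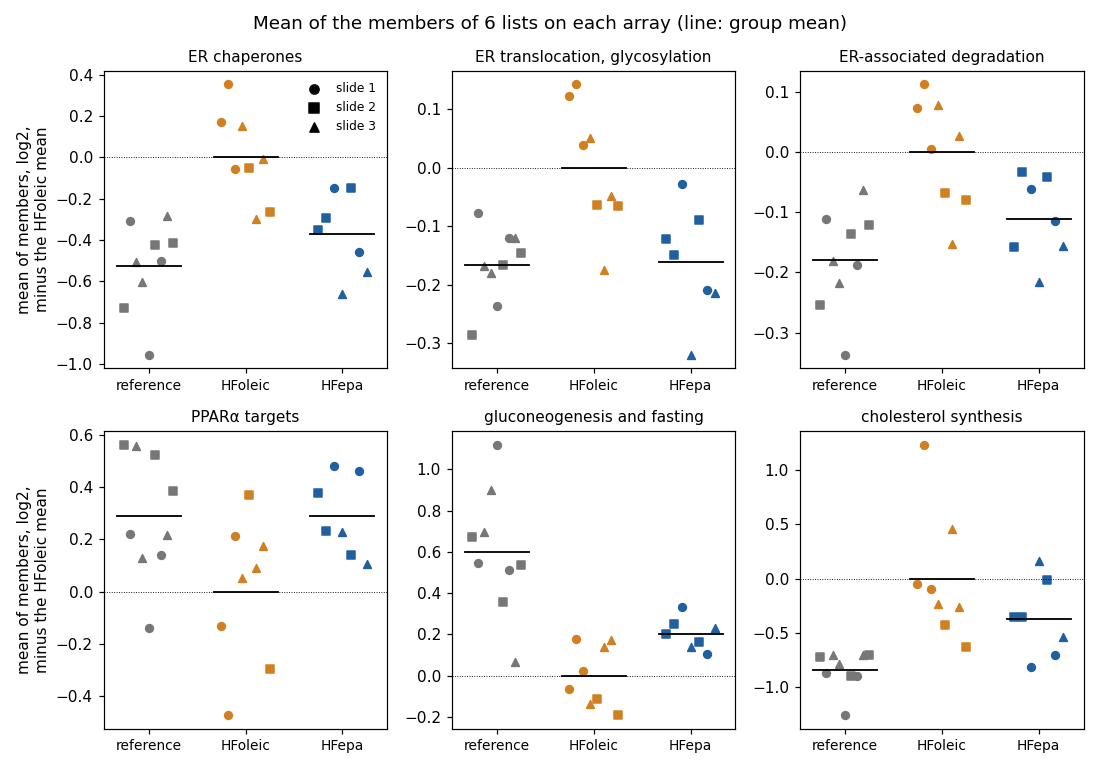
Mean over the members of 6 gene lists on each array, in log2 units relative to the HFoleic mean (y axis), for reference (9 arrays), HFoleic (8) and HFepa (7), with a symbol for each slide and a line at the group mean. For ER chaperones all HFepa arrays lie between -0.66 and -0.15, below the HFoleic mean, and the reference between -0.95 and -0.28, whereas cholesterol synthesis in HFoleic is spread from -0.63 to 1.24.

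Per array, the mean over the 27 ER chaperones was -0.66 to -0.15 in HFepa, -0.30 to 0.35 in HFoleic and -0.95 to -0.28 in the reference, relative to the HFoleic mean. All 7 HFepa arrays were thus below the HFoleic mean, but HFoleic replicates 6 (-0.30) and 8 (-0.26) lay within the HFepa range. The median difference of the list was -0.34, -0.07 and -0.47 within the 3 slides, so it was close to that of all probes on slide 2. Within slide rows 1 and 2 the median difference was -0.26 and -0.25. For ER translocation the arrays spanned -0.32 to -0.03 in HFepa and -0.17 to 0.14 in HFoleic.

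Of 35 measured PPARα targets, a list that holds genes of fatty acid oxidation, hydroxylation and transport, 30 were higher in HFepa, and 14 (40.0%) were higher at an unadjusted p under 0.05, beside 4.04% of all probes, with none lower. No member passed the adjusted threshold, and the median difference was 0.13. Cyp4a14, an omega-hydroxylase of fatty acids, was the member whose groups did not overlap: 9.99 to 10.62 in HFepa (median 10.14) and 9.37 to 9.93 in HFoleic (median 9.70), with 9.88 to 10.79 in the reference. The difference was 0.49 (0.24 to 0.73, limma adjusted p = 0.192). Angptl4, a secreted inhibitor of lipoprotein lipase, was 15 to 15.83 in HFepa (median 15.55) and 14.65 to 15.1 in HFoleic (median 14.84). Its ranges barely overlapped, and the difference was 0.57 (0.28 to 0.86, limma adjusted p = 0.196).

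The acyl-CoA thioesterases, which release free fatty acids from CoA, had some of the largest differences of the list. Acot5, Acot3, Acot1, Acot2 and Acot4 differed by 0.98, 0.81, 0.78, 0.77 and 0.56, each at an unadjusted p under 0.05. These genes are close paralogs in a cluster, so their probes may share signal. Acot5 had 9.58 to 10.79 in HFepa (median 10.22) and 8.25 to 10.45 in HFoleic (median 9.30), with overlap, and a further probe gave 0.07. Ehhadh, the bifunctional enzyme of peroxisomal oxidation, differed by 0.80, Cpt1b by 0.48 and Cyp4a10 by 0.44. Acyl-CoA dehydrogenases of the mitochondrial cycle differed by 0.10 or less: Acadm and Acadl were at 0.00 and 0.10, and Ppara was at 0.02. The list was uneven over slides, with medians of 0.42, 0.10 and 0.03, and the number at an unadjusted p under 0.05 was 7 without HFoleic replicate 2 and 9 without HFepa replicate 3. Its mean per array, relative to the HFoleic mean, was 0.10 to 0.48 in HFepa and -0.47 to 0.37 in HFoleic. HFoleic replicates 3, 5 and 7 lay within the HFepa range.

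Of 22 genes of gluconeogenesis and fasting, 16 were higher and 6 (27.3%) were higher at an unadjusted p under 0.05, with none lower. Pck1, which commits oxaloacetate to glucose, had 16.21 to 16.74 in HFepa (median 16.51), 15.72 to 16.43 in HFoleic (median 16.1) and 16.14 to 17 in the reference (median 16.9), and the difference was 0.44 (0.20 to 0.68, limma adjusted p = 0.213), of like size on the 3 slides (0.46, 0.48 and 0.38). Irs2, the insulin receptor substrate that is made in fasting, had 11.17 to 12.2 in HFepa (median 12) and 10.42 to 11.45 in HFoleic (median 11.08). All 7 HFepa arrays were above the HFoleic mean and the difference was 0.70 (0.25 to 1.15, limma adjusted p = 0.281), with 0.98 and 1.02 on slides 1 and 2 and 0.12 on slide 3. Txnip, an inhibitor of glucose uptake and of thioredoxin, differed by 0.61 (limma adjusted p = 0.197). Igfbp1, an insulin-repressed binding protein, differed by 0.61, and Foxo1 by 0.18. G6pc, Fbp1 and Pcx were at 0.00, 0.00 and -0.01, and Ppargc1a was at -0.08 (-0.41 to 0.25). Without HFoleic replicate 8 the number of members with an unadjusted p under 0.05 was 3.

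Among 30 genes of insulin signalling, 5 were higher and 1 lower at an unadjusted p under 0.05, and without HFoleic replicate 2 only 1 was higher. The 5 were Irs2, Pdpk1 (0.17), Gsk3a (0.14), Rictor (0.14) and Foxo1, and the phosphatase Ptprf was at -0.21. Gfpt1, the entry enzyme of hexosamine synthesis and a known target of Xbp1, had 9.76 to 10.27 in HFepa (median 9.81) and 10.01 to 10.69 in HFoleic (median 10.49), a difference of -0.49 (-0.71 to -0.26, limma adjusted p = 0.13), with all 7 HFepa arrays below the HFoleic mean.

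A panel of 16 genes had been chosen for RT-qPCR on these same mice, so its counts are not independent evidence. On the arrays 6 were higher (Angptl4, Pck1, Irs2, Agpat6, Dnajb1 and Foxo1) and 4 lower (among them Xbp1, Gfpt1 and Srebf1) at an unadjusted p under 0.05. None passed the adjusted threshold. Mlxipl, Cpt1a, Hmgcs1, Hspb1, Ppargc1a and Sdc1 had differences of -0.11, 0.13, -0.36, 0.14, -0.08 and 0.21.

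Of 25 genes of cholesterol synthesis and uptake, 20 were lower and 7 (28%) were lower at an unadjusted p under 0.05, with a median difference of -0.40. Among them were the synthesis enzymes Sc5d (-0.29), Lss (-0.58), Mvk (-0.65) and Mvd (-0.84) and the sterol sensor Insig1 (-0.55). This difference was not even over the arrays. Within the slides the median was -1.08, 0.21 and -0.15, and within slide rows 1 and 2 it was -0.72 and -0.12. HFoleic replicate 2, on slide 1, had a mean of 1.24 over the list, far above the other HFoleic arrays (-0.63 to 0.46). Without that array the median was -0.25 and 3 members had an unadjusted p under 0.05, whereas without HFoleic replicate 8 or HFepa replicate 4 the number was 14 or 13. The methods' t-test gave 2. Against the reference mean, the median member was 0.37 higher in HFepa and 0.93 higher in HFoleic. Srebf2, the factor that drives the pathway, differed by 0.01.

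Of 20 genes of fatty acid synthesis, 4 were lower at an unadjusted p under 0.05: Mid1ip1, which activates acetyl-CoA carboxylase (-0.70, limma adjusted p = 0.219), Aacs (-0.90, limma adjusted p = 0.266), Srebf1 (-0.61) and Acly (-0.31). Srebf1 differed by -1.48 on slide 1, -0.41 on slide 2 and 0.21 on slide 3. Fasn was at -0.53 without a p under 0.05. The desaturases Fads1 and Fads2 and the elongase Elovl5, enzymes of polyunsaturated fatty acids, were at -0.03, 0.04 and 0.01. By the brightest probe of each gene, none of 25 genes of eicosanoid and polyunsaturated fatty acid oxidation had an unadjusted p under 0.05. Their differences ran from -0.22 to 0.34, and with single arrays left out 0 to 2 were higher at that threshold. Cyp2u1 was at 0.18, but further probes gave -0.31, at an unadjusted p under 0.05, and -0.20. Of 25 genes of triglyceride synthesis and lipid droplets, 13 were higher and 12 lower, with a median of 0.01. At an unadjusted p under 0.05, 2 (8%) were higher and none lower, beside 9.23% of all probes in either direction. The 2 were Agpat6, a glycerol phosphate acyltransferase of the ER (0.28, limma adjusted p = 0.266), and Lpin2 (0.42). With single arrays left out, 1 to 3 were higher and 0 to 2 lower.

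Of the bile acid genes, Cyp7a1, the rate-limiting enzyme of their synthesis, had 10.67 to 12.27 in HFepa (median 10.99), 8.95 to 11.49 in HFoleic (median 9.63) and 10.65 to 12.89 in the reference. The difference was 1.24 (0.44 to 2.05, limma adjusted p = 0.293), or 2.37-fold, and 0.24 at a further probe. Nr0b2 (Shp), the receptor that represses Cyp7a1, had 7.65 to 8.70 in HFepa (median 8.42) and 8.28 to 9.78 in HFoleic (median 9.30), a difference of -0.94 (-1.52 to -0.36, limma adjusted p = 0.266). Klb, the co-receptor through which Fgf15 acts on Cyp7a1, differed by 0.31, and the bile acid transporter Slc10a2 by -0.57 on 6 HFepa arrays with a value. The farnesoid receptor Nr1h4, which induces Nr0b2, was at 0.15, and the transporters Slc10a1 and Abcb11 were at 0.00 and -0.20. Of the 28 genes of the list 4 were higher and 2 lower at an unadjusted p under 0.05, and 2 were higher without HFoleic replicate 8.

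**Figure D3:**
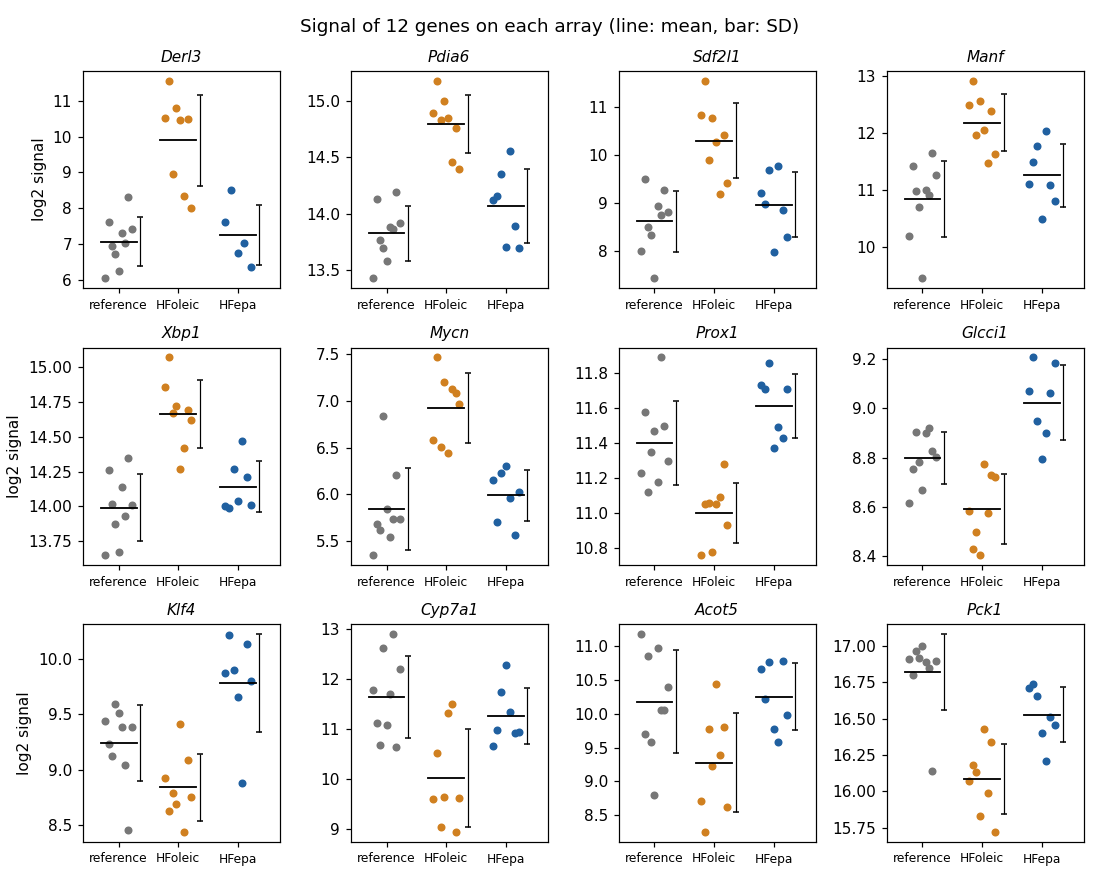
Log2 signal (y axis) of 12 genes on each array of the reference (9 arrays), HFoleic (8) and HFepa (7) groups, with the mean as a line and the SD as a bar beside it. Derl3 has 5 HFepa arrays, none above 8.5, and the HFepa and HFoleic points of Mycn, Prox1 and Glcci1 do not overlap.

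The smallest p-values belonged to Glcci1 and Prox1, each with a limma adjusted p of 0.0558. Glcci1, a transcript induced by glucocorticoids, had 8.79 to 9.21 in HFepa (median 9.06), 8.40 to 8.78 in HFoleic (median 8.58) and 8.62 to 8.92 in the reference. The high-fat groups did not overlap, and the difference was 0.43 (0.29 to 0.58), with 0.50, 0.31 and 0.42 on the single slides. Prox1, a homeobox factor of hepatocytes and a known co-repressor of Cyp7a1, had 11.37 to 11.86 in HFepa (median 11.71), 10.76 to 11.28 in HFoleic (median 11.05) and 11.12 to 11.89 in the reference. Its difference was 0.61 (0.40 to 0.83), 1.53-fold, and 0.68, 0.66 and 0.49 on the single slides, but a further probe of Prox1 gave 0.04. Both passed the threshold when dim probes were left out (limma adjusted p = 0.0482 for each) and with an intensity trend in the moderation (0.0444 for each). Under other settings the limma adjusted p reached 0.155 for Glcci1 and 0.140 for Prox1. With single arrays left out it reached 0.228 for each.

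**Figure D4:**
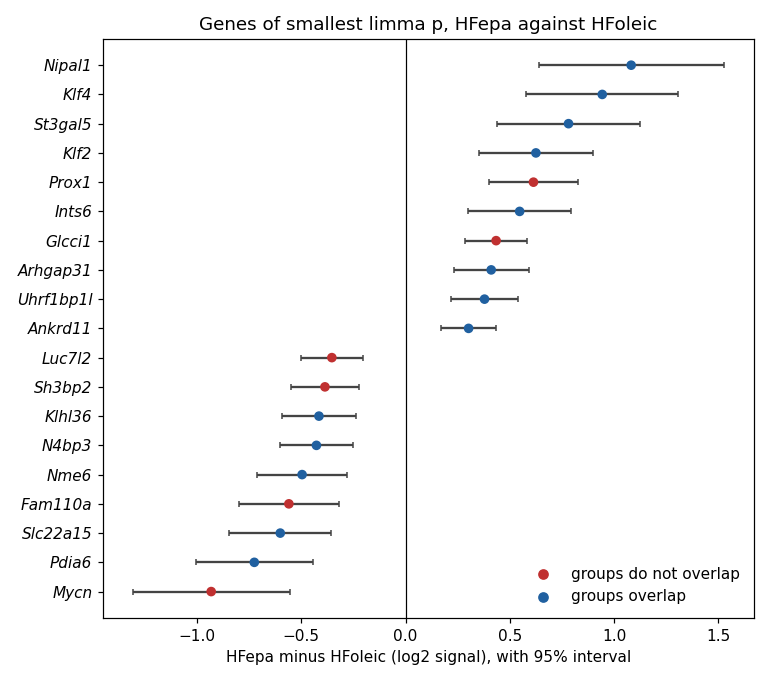
Difference between HFepa and HFoleic (log2 signal, x axis) with 95% intervals for 10 genes higher and 9 genes lower in HFepa, of smallest limma p among named genes with a value on all 15 arrays (which leaves out Derl3, at -2.64), in red where the arrays of the groups do not overlap. The differences run from -0.93 (Mycn) to 1.08 (Nipal1), and no gene passed an adjusted p under 0.05.

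Klf4 and Klf2, zinc finger factors known for their part in endothelium, were also among the 10 genes of smallest p higher in HFepa. Klf4 had 9.66 to 10.22 on 6 HFepa arrays and 8.88 on replicate 5, against 8.44 to 9.41 in HFoleic, and the difference was 0.94 (0.58 to 1.31, limma adjusted p = 0.116). Klf2 had 10.33 to 10.57 on the same 6 arrays and 9.60 on replicate 5, against 9.37 to 10.05 in HFoleic, and the difference was 0.63 (0.35 to 0.90, limma adjusted p = 0.117). For both genes HFepa replicate 5 was therefore inside the HFoleic range and the other 6 arrays above it. The other 11 measured members of the family had no unadjusted p under 0.05. Nipal1, a magnesium transporter, differed by 1.08 (0.64 to 1.53, limma adjusted p = 0.116), and St3gal5, which makes the ganglioside GM3, by 0.78. Uhrf1bp1l, Arhgap31, Ankrd11 and Ints6 differed by 0.38, 0.41, 0.30 and 0.55, and a further probe of Arhgap31 gave -0.08.

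The largest positive differences were those of Gadd45b, a stress-inducible gene (1.29, 0.65 to 1.93, limma adjusted p = 0.178), Hspa1a, an inducible cytosolic Hsp70 (1.28, limma adjusted p = 0.22), and Socs2, the feedback inhibitor of growth hormone signalling (1.28, limma adjusted p = 0.241). Gadd45b had 9.60 to 10.94 in HFepa (median 9.76) and 8.03 to 10.08 in HFoleic (median 8.59), so the ranges overlapped although all 7 HFepa arrays were above the HFoleic mean. Hspa1a was 2.10, 1.16 and 0.46 higher on the single slides. The rest of the cytosolic heat shock list was mixed, with 4 of 25 genes higher and 2 lower at an unadjusted p under 0.05, and 2 higher without HFoleic replicate 1 or HFepa replicates 1 or 6. Dnajb1 was 0.37 higher, whereas the co-chaperone Fkbp4 was lower without overlap of the groups (12.9 to 13.19 in HFepa, 13.22 to 13.48 in HFoleic, difference -0.26, limma adjusted p = 0.219) and Hspa4l differed by -0.23, with 0.31 at a further probe.

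Of the genes lower in HFepa, Mycn, a proto-oncogene of the Myc family, had 5.57 to 6.30 in HFepa (median 6.03), 6.44 to 7.47 in HFoleic (median 7.03) and 5.35 to 6.84 in the reference. The high-fat groups did not overlap and the difference was -0.93 (-1.31 to -0.56, limma adjusted p = 0.116). It was -1.58 on Agilent's processed signal, over 1.5 times larger, and -0.71 under normexp background correction. The signal was dim, well above background on 5 of 7 HFepa arrays. Luc7l2, Sh3bp2 and Fam110a also separated the groups completely, at -0.35, -0.39 and -0.56. A further probe of Fam110a gave 0.09, and 3 of 10 other probes of Luc7l2 had a positive difference. Slc22a15, N4bp3, Klhl36 and Nme6 differed by -0.60, -0.43, -0.42 and -0.50, with further probes of Slc22a15, Klhl36 and Nme6 in the same direction. Cyp26a1, the enzyme that clears retinoic acid, had 6.61 to 7.05 in HFepa (median 6.69) and 6.96 to 8.22 in HFoleic (median 7.72), a difference of -0.92 (limma adjusted p = 0.13). Rara, a retinoic acid receptor, differed by -0.35 (limma adjusted p = 0.284).

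**Figure D5:**
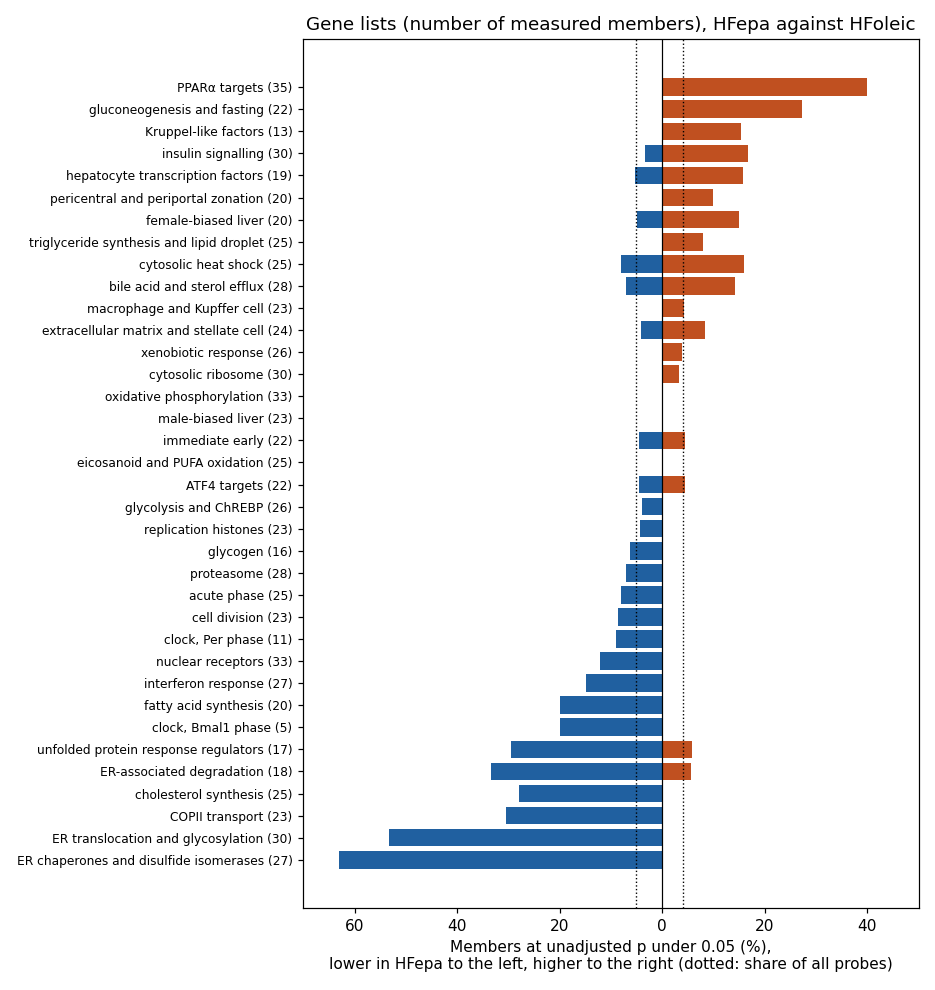
Share of the measured members of each gene list (number in brackets) with an unadjusted p under 0.05 in the limma fit (x axis, percent), to the left for members lower and to the right for members higher in HFepa, with dotted lines at the shares of all probes, 5.18% and 4.04%. ER chaperones (63.0% lower) and PPARα targets (40.0% higher) are at the ends.

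Of 27 interferon response genes 24 were lower, with a median of -0.19, but 4 had an unadjusted p under 0.05, namely Isg15 (-0.41), Ifih1 (-0.35 on the 6 HFepa arrays with a value, but 0.11 under normexp background correction), Tap1 (-0.37) and Psmb9 (-0.47). Their differences were uneven, with Tap1 at -0.20, -0.76 and -0.14 on the single slides, and the number at an unadjusted p under 0.05 was 13 without HFepa replicate 4 and 1 without HFepa replicate 2. Of 23 cell division genes 2 were lower at an unadjusted p under 0.05, Mcm4 (-0.28) and Tyms (-0.18). By the brightest probes, oxidative phosphorylation (33 genes, -0.12 to 0.07) and male-biased liver genes (23) had none. Nudt7 of the male-biased list was at -0.50, but at -0.84 and -0.59 at further probes, each with an unadjusted p under 0.05. Of 20 female-biased genes, 3 were higher and 1 lower at an unadjusted p under 0.05 (1 to 3 and 0 to 3 with single arrays left out). Ribosomal protein genes had 1 of 30, the proteasome 2 of 28, acute phase genes 2 of 25 and macrophage genes 1 of 23. With single arrays left out, the number of cell division genes lower ran from 1 to 3, and the counts of oxidative phosphorylation, male-biased, ribosomal protein, proteasome, acute phase and macrophage genes ran from 0 to 2 in each direction. In the xenobiotic list, Por, the reductase that feeds electrons to cytochromes P450, differed by 0.36, with all 7 HFepa arrays above the HFoleic mean (limma adjusted p = 0.197), and Cyp2b9 differed by -1.82 with a 95% interval of -3.67 to 0.02. Of 24 genes of extracellular matrix and stellate cells, 14 were higher and 10 lower, with a median of 0.03. At an unadjusted p under 0.05, 2 were higher and 1 lower, and 1 to 3 were higher with single arrays left out. The higher ones were Ctgf, a matrix protein (0.77, 8.64 to 9.98 in HFepa, 8.06 to 8.93 in HFoleic, limma adjusted p = 0.387), and Des (0.24). Lrat was the lower one (-0.31, limma adjusted p = 0.328).

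The number of called probes depended on single arrays. Without HFepa replicate 5 there were 12 called probes, 7 higher and 5 lower: Klf4 (1.09), Klf2 (0.74), Glcci1 (0.45), Prox1 (0.63), Rsph3a (0.48), Ankrd11 (0.34) and a RIKEN clone were higher, and the lower ones included Slc22a15 (-0.70), Pdia6 (-0.81), N4bp3 (-0.47) and a further RIKEN clone. Their limma adjusted p ran from 0.0095 to 0.0447. Without HFoleic replicate 5 the 5 called probes were those of Glcci1, Klf4, Prox1, Zfp867 (-0.48) and Zbtb8a (-0.40). Without HFepa replicate 4 or HFoleic replicate 7 Glcci1 and Prox1 were called, without HFepa replicate 7 Nipal1 and a RIKEN clone, and without reference replicate 7 Prox1. Rsph3a, Zfp867 and Zbtb8a are named here after their values were seen. No call was made when any of the other 18 arrays was left out.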

How the data were processed

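The authors deposited the scanner output of each array (Agilent Feature Extraction 10.10.1.1), in which spot signals are intensity values without normalization per the file headers, and a value table in log2 units, for which they had filtered the median signals and applied quantile normalization, with 32176 probes and 2550 empty cells. Flags for outlier spots and spots well above background are other columns of the deposited scanner files. The filter behind the table is not stated. Each column matched its own array (lowest correlation with that array's log2 signal 0.9997).

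All 24 arrays were fitted with limma 3.58.1 (R 4.3.3; lmFit, group means, contrast HFepa minus HFoleic, eBayes, two-sided), with Benjamini-Hochberg adjustment over all probes. The study names lmFit and this adjustment. Its pairwise test (the methods' t-test) served as an alternative. Tables were handled with pandas 2.3.3, and the code was checked on simulated data. Gene names are those of the scanner files. A list is read from the brightest probe of each gene. The members and lists were chosen with earlier results of these data known. Genes were named by a rule: among genes with a symbol that is no clone or predicted name and a value on all 15 arrays (which Derl3 lacks), the 10 of smallest p in each direction and the 5 of largest difference in each direction at an unadjusted p under 0.05, then the RT-qPCR genes and the 3 members of smallest p of each list. Other list members are named as examples. P-values set a difference against the spread between these mice, whose litters are unknown here, and the number of arrays limits the precision. That spread was estimated over all 24 arrays, reference included. The adipocyte, bile duct and muscle lists reached means of 1.90, 2.06 and 1.50 on the highest reference array of each. The reference medians were -0.04, 0.25 and 0.09, all relative to the HFoleic mean. Without reference replicate 5, 3432 probes (10.7%) had an unadjusted limma p under 0.05 and 0 were called. In a fit of the 15 high-fat arrays only, 3611 probes (11.2%) had an unadjusted limma p under 0.05 and 0 were called. Alternatives changed the signal column, background correction, filter, samples, blocks and test, and left out each array in turn. Some genes that the rule names are not reported here.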

Additional observations from a re-analysis of the deposited data

Results flagged for a closer look

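Of 130 groups of HFepa or HFoleic arrays examined for 1 array far from the rest, 7 had one, and chance flags about 1 in 20. The signal of Klf2 on HFepa replicate 5 was 9.60, against 10.33 to 10.57 on the other HFepa arrays, and that of Klf4 on the same array was 8.88, against 9.66 to 10.22. Uhrf1bp1l on HFoleic replicate 5 was 11.7, against 11.3 to 11.47. The mean over the extracellular matrix and stellate cell list, relative to the HFoleic mean, was 0.46 on HFepa replicate 4 (others -0.15 to 0.08) and -0.31 on HFoleic replicate 1 (others -0.05 to 0.15). On HFoleic replicate 2 the mean over oxidative phosphorylation was -0.14 (others -0.02 to 0.08) and that over the xenobiotic response was -0.51 (others -0.05 to 0.27). The causes were not tested.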

How the results depend on the processing

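The count of called probes was 0, and 0 under every other setting except the filter on dim probes (2 called) and the intensity trend (2 called). With single arrays left out the count of called probes ran from 0 to 12. At an unadjusted p under 0.05 the count was 2969, and 2258 to 3739 with single arrays left out. The labels do not tie equal replicate numbers to a litter or batch. Same-numbered HFepa and HFoleic arrays deviated with correlations from -0.28 to 0.05, no HFepa array correlated best with its own number, and with the replicate number as a block 0 probes were called, with 2376 at an unadjusted p under 0.05. The difference between the mean distance across the groups and that within them was 0.0133 (p = 0.0215, exact permutation test). It was 0.00602 without a filter on dim probes, with a p of 0.0723, and from 0.00971 to 0.0199 as single arrays were left out. Of the differences of named genes under other settings, 1561 kept their direction and side of the threshold, 4 passed it, and 1 changed sign: Ifih1 was 0.111 under normexp background correction. With single arrays left out, the difference of Cry1 ran from -0.0278 to 0.119, and its sign turned without HFepa replicate 2, HFepa replicate 6 or HFoleic replicate 5. The causes were not tested.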
